A study of Mus musculus with 18 samples.

Results

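H3K27me3 was compared between single headfolds of B6 and 129 mouse embryos that received no vitamin C. The lists of peaks were taken for every H3K27me3 sample of either background without vitamin C for which a list was at hand. That gave 3 B6 and 3 129 headfolds, which is 6 of the 18 samples of the series and 6 of the 12 with a peak list. All were collected at embryonic day 8.5 and were Gulo-/-, so they lacked the last enzyme of vitamin C synthesis and depended on their dams for the vitamin. The dams of these embryos had nothing added to the drinking water. The other 6 lists, 3 per background, came from Gulo-/- embryos of dams that drank vitamin C at 3.3 g/l, and they serve here as embryos not used to choose any region. The background is labelled B6 or 129, and the series text names the latter 129S6.B6-Gulo-/-. Each group held 2 female headfolds and 1 male, and the 6 headfolds without vitamin C came from 6 pregnancy codes. With vitamin C, the 3 B6 headfolds shared 1 pregnancy code, whereas the 3 129 headfolds came from 3. B6 replicates carry the numbers 1, 2 and 4, and B6 replicate 3 and the 4 IgG samples were not analysed here. All 129 libraries carry lower library numbers than all B6 libraries, also among the embryos given vitamin C, so that library number and background cannot be told apart. Labels do not say whether headfolds were handled together, and p-values measure the spread between single embryos.

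H3K27me3 is a repressive mark on histone H3 that is written by the Polycomb complex PRC2. In the embryo it forms broad domains over genes of transcription factors and signalling molecules in cells where these are off, with the Hox clusters as the best known case, and it is low over transcribed genes. In CUT&Tag an antibody tethers a transposase that cuts and tags the DNA beside the mark. A headfold holds neural folds, surface ectoderm, head mesenchyme and foregut, so fewer cells with the mark and less mark per cell cannot be told apart.

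The sequences below are the promoter windows of 4 genes on which the comparison turned, each from 250 bases before to 50 bases after a RefSeq start (build GRCm38.p6), 5′ to 3′ on the strand of the gene. Capitals mark each CG dinucleotide (CpG), the letters CG read on either strand. Sema5b, an axon guidance semaphorin (chr16:35541112-35541411, plus strand), and H2-T3, a non-classical MHC class I gene (chr17:36190102-36190401, minus strand), had a peak over this window in 3 of 3 129 and 0 of 3 B6 headfolds. Foxa1, a pioneer factor of foregut and floor plate (chr12:57546062-57546361, minus strand), lay under peaks in 3 of 3 129 and 1 of 3 B6 headfolds. Ghsr, the ghrelin receptor (chr3:27371101-27371400, plus strand), lay under peaks in all 6, but only the B6 peaks ranked among the strongest 748 of their lists.
Sema5b: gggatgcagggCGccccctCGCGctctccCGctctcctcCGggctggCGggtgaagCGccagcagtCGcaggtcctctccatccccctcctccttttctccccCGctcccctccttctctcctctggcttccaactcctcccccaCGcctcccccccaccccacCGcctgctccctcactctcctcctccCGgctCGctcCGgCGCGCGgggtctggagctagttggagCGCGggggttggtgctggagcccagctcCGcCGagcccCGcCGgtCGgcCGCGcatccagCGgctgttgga
H2-T3: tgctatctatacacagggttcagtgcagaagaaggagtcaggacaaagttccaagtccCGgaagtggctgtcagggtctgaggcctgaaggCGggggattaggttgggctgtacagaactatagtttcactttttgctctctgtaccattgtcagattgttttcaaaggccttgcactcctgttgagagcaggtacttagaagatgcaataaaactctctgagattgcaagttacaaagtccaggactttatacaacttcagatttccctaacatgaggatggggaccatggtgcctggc
Foxa1: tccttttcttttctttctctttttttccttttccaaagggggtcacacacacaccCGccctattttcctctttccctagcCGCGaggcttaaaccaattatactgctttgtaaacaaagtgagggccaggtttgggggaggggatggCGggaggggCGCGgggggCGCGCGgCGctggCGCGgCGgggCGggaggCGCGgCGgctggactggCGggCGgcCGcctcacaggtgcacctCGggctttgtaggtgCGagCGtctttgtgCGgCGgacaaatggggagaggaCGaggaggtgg
Ghsr: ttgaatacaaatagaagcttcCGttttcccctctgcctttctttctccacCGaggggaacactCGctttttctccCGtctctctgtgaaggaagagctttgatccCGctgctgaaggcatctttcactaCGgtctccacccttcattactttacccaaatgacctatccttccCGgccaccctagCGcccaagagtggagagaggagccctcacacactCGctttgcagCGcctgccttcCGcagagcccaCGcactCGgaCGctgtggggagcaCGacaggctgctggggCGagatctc
The Sema5b window held 27 CpGs, more than 79.9% of the 17491 protein-coding promoters matched, and the Foxa1 window 26, more than 77.9%. Ghsr held 16, more than 54.9%. The H2-T3 window held 2, and 12.4% of promoters held fewer.

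Protein-coding genes were also grouped by peaks within 1 kb of either gene end, so the peak need not lie over the promoter. Promoters of genes marked in 3 of 3 129 and 0 of 3 B6 headfolds (32 with a sequence) held a median of 19 CpGs in 300 bases. Those of genes marked in all 6 headfolds (267) held a median of 18. The median over all protein-coding promoters was 13, and over those of genes marked in none of the 6 it was 12. Promoters of genes marked in more B6 than 129 headfolds (104) held a median of 20. These medians are a description with no test.

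The 129 lists were longer on average, but the groups overlapped. B6 replicates 1, 2 and 4 held 2378, 748 and 2395 peaks, and 129 replicates 1, 2 and 3 held 2981, 1388 and 3171. The length under peaks was 3.58, 4.15 and 15.0 Mb in B6 and 26.2, 6.97 and 25.9 Mb in 129, and the median peak width was 1322, 4507 and 4886 bp in B6 and 6686, 4102 and 6221 bp in 129. B6 replicate 4 stood above 129 replicate 2 in all of these measures, and 129 replicates 1 and 3 stood above all B6 headfolds. The ratio of B6 to 129 (geometric means) was 0.361 for covered length (two-sided exact permutation test, p = 0.2, 3 against 3, 20 relabellings, smallest possible p 0.1), 0.687 for peak number (exact p = 0.5) and 0.555 for median width (exact p = 0.3). In B6 replicate 1, 81.0% of peaks were under 2 kb, against 0.403% to 2.67% in the other 5 headfolds. Without B6 replicate 2 the log2 difference in peak number turned from -0.54 to 0.02.

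**Figure D1:**
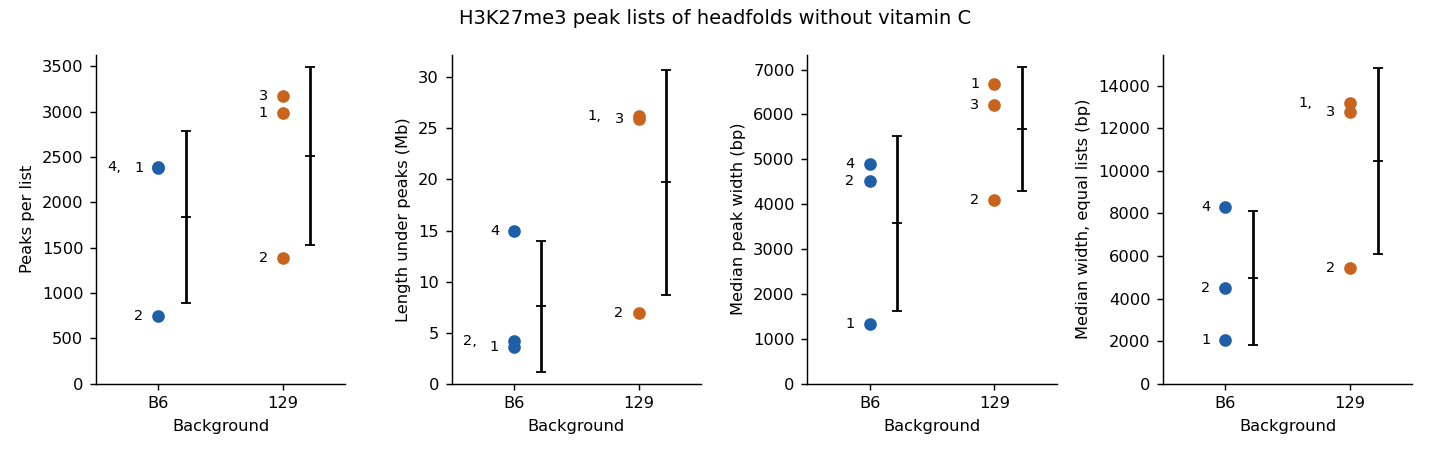
Peaks per list, length under peaks in Mb, and median peak width in bp in full lists and in lists cut to the strongest 748 peaks, for each B6 (blue) and 129 (orange) headfold without vitamin C. Numbers are replicates and bars are the mean and SD of 3. 129 replicates 1 and 3 lie above every B6 headfold in each panel, and 129 replicate 2 lies below B6 replicate 4.

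Because list lengths differed, each list was also cut to its 748 peaks of largest total signal, the length of the shortest list. These equal lists still covered 1.66, 4.15 and 7.86 Mb in B6 and 12.4, 4.87 and 11.9 Mb in 129, a ratio of 0.422 (exact permutation test, p = 0.2, n = 3 per background). A gene was counted as marked where a peak lay within 1 kb of either end, so that a gene can be unmarked although a peak lies elsewhere in its domain. In equal lists 617, 908 and 1253 genes were marked in B6 and 1496, 945 and 1461 in 129 (ratio 0.698, exact permutation p = 0.2, n = 3 per background).

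The peak sets of the other headfolds lay largely within those of 129 replicates 1 and 3. Of the base pairs under peaks of B6 replicate 4, 94.6% lay under peaks of 129 replicate 1 and 94.1% under those of 129 replicate 3. The smaller sets were less nested in each other. Of B6 replicate 1, 46.9% lay under peaks of B6 replicate 2 and 57.2% under those of 129 replicate 2. Of B6 replicate 2, 70.1% lay under peaks of 129 replicate 2. The Jaccard index, shared base pairs over all base pairs, averaged 0.335 within a background and 0.288 across (one-sided exact permutation test, p = 0.2, 20 relabellings), and 0.374 against 0.310 in equal lists (exact p = 0.2). The closest pair was 129 replicates 1 and 3, at 0.734. B6 replicate 4 shared 0.524 and 0.526 with those 129 headfolds, above the mean of 0.249 within B6. Without 129 replicate 1 or 129 replicate 3 the difference within minus across changed sign, to -0.0453 and -0.0451, so it rested on that pair.

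Peaks of the 6 lists were merged into 2877 regions called in at least 2 headfolds. Of these, 449 were called in all 6, 618 in 2 129 headfolds and no B6 headfold, and 634 in 2 129 headfolds and 1 B6 headfold. Calls in 3 of 3 129 and 0 of 3 B6 headfolds were made for 49 regions (1.7% of those tested), and the reverse for 5 (0.174%). In equal lists there were 856 regions, with 238 called in all 6, 29 called in 3 of 3 129 and 0 of 3 B6 (3.39%) and 8 the reverse (0.935%). No p-value was set on single regions, since 3 against 3 cannot pass 0.1. These counts changed strongly with single headfolds. Without 129 replicate 2 the 49 became 666 and without B6 replicate 4 they became 274, while without B6 replicate 2 the 5 became 14 and without B6 replicate 4 they became 8. In equal lists the 29 became 86 without 129 replicate 2 or without B6 replicate 4 and 46 without 129 replicate 1. The 8 became 25, 20 and 32 without B6 replicates 1, 2 and 4, and 13 without 129 replicate 1 or 129 replicate 2.

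**Figure D2:**
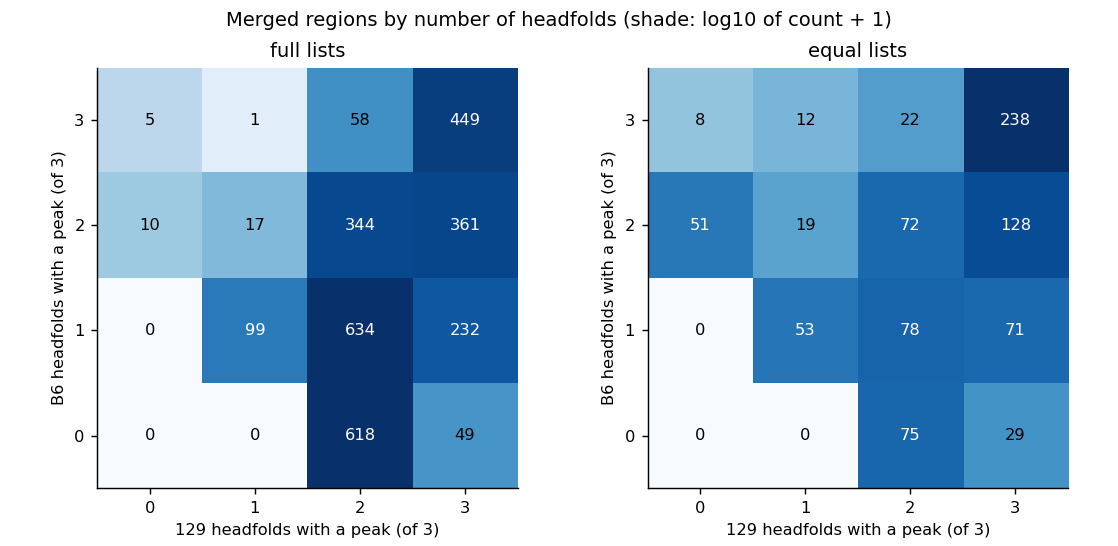
Number of merged regions by how many of 3 129 headfolds (x axis) and of 3 B6 headfolds (y axis) held a peak, in full lists (left) and equal lists (right). The upper right corner holds the 449 and 238 regions called in all 6, the lower right corner the 49 and 29 called in every 129 and no B6 headfold, and the upper left corner the 5 and 8 called in every B6 and no 129 headfold.

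The widest regions called on the 129 side alone lay in a gap between genes on chromosome 6. A stretch of 141.7 kb (chr6:114492660-114634368) between Hrh1, the histamine H1 receptor, and Atg7, an enzyme of autophagy, was covered by peaks over 98.9%, 36.5% and 80.6% of its length in 129 replicates 1, 2 and 3. The covered share was 0%, 0% and 14.5% in B6 replicates 1, 2 and 4. It starts 9.36 kb beyond the end of Hrh1, ends 8.76 kb before the start of Atg7, and holds no gene of the RefSeq table. By total signal its strongest peak ranked 2nd, 38th and 8th in the full lists of 129 replicates 1, 2 and 3, and 1524th in that of B6 replicate 4. Within the stretch, 129 replicate 1 had a peak of 112.1 kb, whereas 129 replicate 2 had 18 short peaks, the widest of 6.39 kb. The domain was chosen for this difference, so these values carry no test.

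In embryos given vitamin C, which had no part in the choice, every 129 headfold again lay above every B6 headfold. The 3 B6 headfolds among them shared a pregnancy code, so the test below does not measure spread between B6 pregnancies. Peaks covered 99.1%, 93.8% and 82.7% of it in 129 and 0%, 15.4% and 21.9% in B6, a difference of -79.4 percentage points for B6 (two-sided exact permutation p = 0.1 with n = 3 per background, which is as low as this design can go). Its best rank was 1st, 1st and 3rd in the 129 lists and 1566th and 1955th in the B6 lists that held a peak. In equal lists the covered share was 0% in all 6 B6 headfolds of either diet. In 129 it ran from 33.7% to 98.9% without and from 76.7% to 99.1% with vitamin C.

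**Figure D3:**
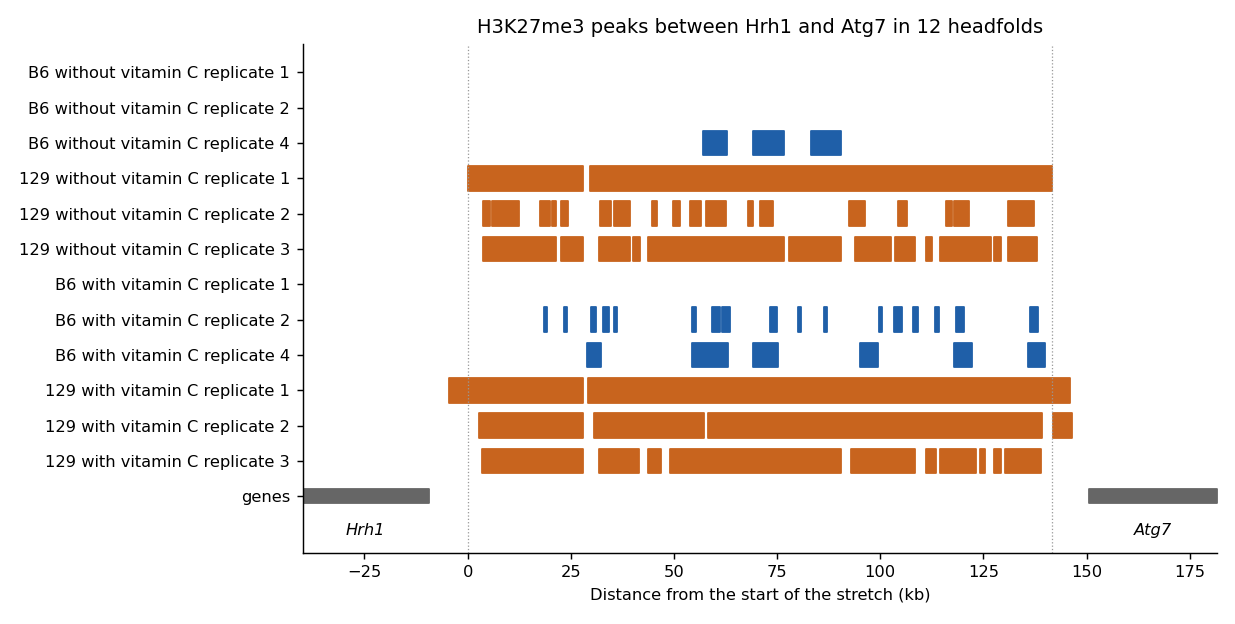
Peaks (bars) along the stretch between Hrh1 and Atg7 in 12 headfolds, B6 blue and 129 orange. The x axis is the distance in kb from the start of the stretch, whose ends are the dotted lines, and grey bars are the genes. The 129 headfolds are covered over 36.5% to 99.1% and the B6 headfolds over 0% to 21.9%.

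Of the 49 regions of the full lists, 33 overlapped a protein-coding gene and 11 overlapped no gene, among them 1 piece of this stretch. In equal lists 21 of 29 overlapped a protein-coding gene and 4 no gene. The region at Sema5b (chr16:35534598-35548080, 13.5 kb) was covered over 94.8%, 36.2% and 86.9% in 129 replicates 1, 2 and 3. That at H2-T3 (chr17:36182426-36193500, 11.1 kb) was covered over 100%, 55.7% and 98.5%. Their strongest peaks lay at or above the 82.9th percentile of total signal in each 129 list, so they were not at the weak end of those lists. By contrast the peaks at Celf6 (an RNA-binding protein, 16.3 kb), Slc25a4 (the mitochondrial ADP/ATP carrier, 12.9 kb), Etv4 (an ETS factor, 10.3 kb) and Epha2 (an ephrin receptor, 10.2 kb) reached only the 18.9th, 22.2nd, 7.42nd and 5.55th percentile in their weakest 129 list. The region at Dmrt3, a transcription factor gene (11.3 kb), was covered over 100%, 49.8% and 81.2%.

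Of 49993 genes with a position, 65 were marked in 3 of 3 129 and 0 of 3 B6 headfolds (0.13%) and 6 the reverse (0.012%). Among 21896 protein-coding genes these were 42 (0.192%) and 1 (0.00457%). In equal lists they were 54 (0.108%) and 12 (0.024%) of all genes, and 30 (0.137%) and 4 (0.0183%) of protein-coding genes. The full count of 65 became 851 without 129 replicate 2 and 425 without B6 replicate 4, and the 6 became 11 without B6 replicate 2. The 54 became 232 and 191 without the same 2 headfolds, and the 12 became 27, 21 and 30 without B6 replicates 1, 2 and 4.

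Genes marked in every 129 and no B6 headfold in the full and the equal lists alike numbered 17, of which 7 code for protein. They were Sema5b, H2-T3, Mapt (the microtubule protein tau), Hpse2 (a heparanase family member), Ralgapa1 (a GTPase activator of Ral), Zpbp2 (a protein of the sperm acrosome) and the zinc finger gene Zfp316. With vitamin C, Mapt, Ralgapa1 and Zfp316 were each marked in 3 of 3 129 and 1 of 3 B6 headfolds in the full lists, Sema5b in 3 and 2, H2-T3 in 3 and 1, Hpse2 in 3 and 2 and Zpbp2 in 2 and 1. None of the 7 was marked in more B6 than 129 headfolds there. In equal lists with vitamin C, Hpse2 was marked in 1 of 3 headfolds of each background, and its region was called in 2 B6 and 1 129. The rest of the 7 were marked in more 129. Without vitamin C, the merged domain at the gene was called in 0 B6 headfolds at Sema5b and H2-T3. It was called in 1 at Hpse2 and Zpbp2, in 2 at Mapt and Ralgapa1 and in 3 at Zfp316, where B6 peaks lay away from the gene's ends. Full lists added, by the same rule on gene ends, Pcdhgc5 (a clustered protocadherin, mean peak width 17.7 kb), Hid1, Sfmbt2 (a Polycomb-related imprinted gene), Sarm1 (an NAD hydrolase of degenerating axons), Npas4 (an activity-dependent factor of neurons), Kcnk10 (a potassium channel) and Cfap61. Their domains were called in 1 to 3 B6 headfolds.

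The equal lists added other genes, of which those of development are given here after their values were seen. Sox1, an early neural factor, was marked among the strongest 748 peaks in 3 of 3 129 and 0 of 3 B6 headfolds with a mean peak width of 18.4 kb, although its domain of 27.2 kb held a peak in 2 B6 equal lists. Also marked in 3 of 3 129 and 0 of 3 B6 equal lists were Tfap2d (15.2 kb), Hes7 (an oscillating repressor of somite formation, 11.03 kb), Hhex (a foregut factor, 8.15 kb), Cdkn2c (a cyclin-dependent kinase inhibitor, 11.9 kb) and Flt1 (a VEGF receptor, 8.97 kb). Unlike that of Sox1, their domains were called in 0 B6 equal lists, though in 1 or 2 B6 full lists. Duox1 (19.7 kb), Tap2 (18.7 kb), Cadps2 (15.8 kb) and Map3k6 (15.2 kb) were on the same side by gene ends, and the domains of Duox1 and Tap2 were called in all 6 equal lists. At Sox21, a SoxB2 factor of neural progenitors, the region of 18.8 kb was covered over 100%, 37.3% and 55.4% in 129 and over 0%, 0% and 33.7% in B6. At Twist1, a factor of head mesenchyme, it was covered over 99.8%, 49.5% and 99.2% in 129 and over 0%, 0% and 38.9% in B6. In B6 replicate 4 these peaks were present but ranked outside the strongest 748.

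Among miRNA genes, Mir9-2 was marked in 3 of 3 129 and 0 of 3 B6 equal lists, and in 3 and 1 of the full lists, while its domain of 32.6 kb was called in 1 B6 equal list and 2 B6 full lists. Its sister genes Mir9-1 (3 and 3 in equal lists) and Mir9-3 (3 and 2) differed less, although all 3 give the same mature miR-9, a regulator of neural progenitors. Mir449c, of a family tied to multiciliated cells, was marked in 3 of 3 129 and 0 of 3 B6 full lists, but in 0 and 0 equal lists. The mature 5p sequences are shown, from RefSeq, with the seed (bases 2 to 8) in capitals.
miR-9-5p (Mir9-2): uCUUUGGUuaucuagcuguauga
miR-449c-5p (Mir449c): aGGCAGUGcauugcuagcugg
Over all 1228 miRNA genes, 62 were marked in more 129 than B6 full lists and 6 in more B6, and 32 and 3 in equal lists. The 62 are of 92 marked in any full list, and the 32 of 47 marked in any equal list. Of protein-coding genes marked in any such list, 70.9% and 54.0% were marked in more 129. So miRNA genes gave no larger share in full lists and a larger one in equal lists, which was not tested.

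Repeated gene families made up several of these regions, a grouping chosen after the values were seen. On chromosome 17 the MHC gave H2-T3, H2-T-ps and, in equal lists, H2-Bl. Of 50 H2- genes there, 17, 10 and 17 were marked in 129 replicates 1, 2 and 3 and 10, 5 and 10 in B6 replicates 1, 2 and 4. In full lists 10 genes were marked in more 129 and 0 in more B6 headfolds, and in equal lists 6 and 3. The 10 are of 17 marked in any full list, and of all protein-coding genes marked in any full list 70.9% were marked in more 129. So the H2- genes gave no larger 129 share in full lists. The 6 and 3 are of 10 marked in any equal list, where the shares over protein-coding genes were 54.0% and 19.1%. Both shares of H2- genes were larger there, on few genes, which was not tested. Raet1e and H60b on chromosome 10 encode ligands of the killer cell receptor NKG2D. The region at Raet1e (16.7 kb) was covered over 98.4%, 84.8% and 100% in 129 and over 7.04%, 0% and 45.5% in B6, and its percentile of total signal was 96.5 to 98.3 in the 129 lists. Regions at Gm3500, Gm3373 and LOC115488283 on chromosome 14 were each called in 3 of 3 129 and 0 of 3 B6 headfolds. With vitamin C they were called in 3 of 3 129 headfolds and in 1, 1 and 0 B6 headfolds. How reads that match several copies were placed is not given in the sources used here, so calls at these families are uncertain.

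Transfer RNA genes, also grouped after the values were seen, were marked in larger number in 129 replicates 1 and 3. Of 430 such genes, 22, 16 and 30 were marked in B6 replicates 1, 2 and 4 and 46, 21 and 61 in 129 replicates 1, 2 and 3. In equal lists the numbers were 18, 16 and 22 against 27, 18 and 30. Gene by gene, of 70 marked in any full list 47 were marked in more 129 and 15 in more B6. Of 35 marked in any equal list, these were 17 and 12. Over protein-coding genes marked in any list, the shares were 70.9% and 4.37% in full lists and 54.0% and 19.1% in equal lists. So tRNA genes gave no larger share on the 129 side and a larger one on the B6 side. Joined within 50 kb, they formed 14 clusters with a marked gene, of which 13 were marked in more 129 and 0 in more B6 headfolds. A cluster counted as marked where any of its genes was, and no like grouping was made of other genes to set beside this. The cluster at chr13:23270421-23317538 was marked in 3 of 3 129 and 0 of 3 B6 headfolds, and with vitamin C in 3 and 1. Over all clusters, 7 were marked in more 129 and 1 in more B6 headfolds with vitamin C.

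Regions called in every B6 and no 129 headfold were 5 in full lists. The strongest was Rn18s-rs5, a ribosomal RNA related sequence (chr17:39841796-39848829), covered over 82.9%, 100% and 94.8% in B6 and 0% in each 129 headfold. It ranked 6th, 4th and 4th in the B6 equal lists. The widest, 37.0 kb on chromosome 6 at Gm40363 with the non-coding Gm52861 and Gm52862 (chr6:47737040-47774064), was covered over 81.8%, 82.6% and 100% in B6 and 0% in 129. With vitamin C it was called in 3 of 3 headfolds of each background. The other 3 lay at Gm39002, at Mogat1 (an acylglycerol transferase, 1.02 kb) and on an unplaced scaffold, and their median percentile of total signal was at most 24.8. Gm39002 was the 1 protein-coding gene counted above. Rn18s-rs5 has near-identical copies, and the placing of reads with several matches is not known here, so its calls are uncertain, as may be those at the Gm genes.

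In equal lists the B6 side held 4 protein-coding genes, namely Ghsr, Trhde (an enzyme that inactivates thyrotropin-releasing hormone), Myod1 (the skeletal muscle determinant) and A930017K11Rik. At Myod1 the region of 4.63 kb was covered over 60.5%, 72.2% and 98.0% in B6 and over 100%, 83.4% and 100% in 129. So the peak was present in all 6, and it ranked 322nd, 617th and 616th in B6 but outside the strongest 748 in 129. Ghsr and Trhde had the same pattern, with covered shares of 37.8%, 46.8% and 100% in B6 and 100%, 56.7% and 100% in 129 at Ghsr. In embryos given vitamin C, Ghsr and Trhde were in 0 of 3 equal lists of either background and Myod1 in 1 of 3 B6 and 2 of 3 129.

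The embryos given vitamin C offered lists not used to pick these regions, although the B6 headfolds among them shared a pregnancy code. Of the 29 regions called in every 129 and no B6 equal list, 23 (79.3%) were called in more 129 than B6 equal lists with vitamin C. Only 1, at Hpse2, was called in more B6. Over all 856 regions the shares were 41.7% and 10.3%. The full separation recurred at 7 of the 29, namely at both pieces of the Hrh1 to Atg7 stretch, Sema5b, H2-T3, H2-Bl, Sarm1 and Wnk4 (a kinase of renal salt transport). Of the 49 regions in full lists, 27 were called in more 129 and 6 in more B6 headfolds with vitamin C, against 21.7% and 15.3% of all 2877 regions. The separation recurred at 3 of those. Of the regions on the B6 side, it recurred at Rn18s-rs5 alone, in full and in equal lists.

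Domains called in all 6 headfolds were covered over more of their length in 129 replicates 1 and 3 than in the other 4 headfolds, by the median. The 4 Hox clusters, which pattern the body axis, lay in the 4 widest of them, at 125.1 to 146.6 kb, apart from Hoxb13. That gene lay in a separate domain of 49.5 kb. Hoxa was covered over 27.1%, 55.7% and 87.6% in B6 replicates 1, 2 and 4 and over 100%, 62.1% and 100% in 129 replicates 1, 2 and 3, and Hoxd over 32.7%, 52.3% and 85.3% against 100%, 51.4% and 100%. Hoxb reached 19.9%, 53.4% and 70.1% in B6 and 79.2%, 32.3% and 78.8% in 129, and Hoxc 26.9%, 44.9% and 96.2% against 100%, 64.5% and 100%. The Hoxb span takes in the gap between Hoxb13 and the domain of 131.3 kb that holds the other Hoxb genes. That domain alone was covered over 21.9%, 64.4% and 81.2% in B6 and over 100%, 40.5% and 99.2% in 129. In each cluster B6 replicate 4 stood above 129 replicate 2, so the groups overlapped. At Cdkn2a and Cdkn2b, cell-cycle inhibitors, the domain of 50.6 kb was covered over 10.1%, 9.33% and 42.2% in B6 and over 99.2%, 29.3% and 99.8% in 129. At Zic1 and Zic4, dorsal neural factors, the values were 12.8%, 25% and 61.7% against 97.6%, 45.6% and 100%.

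Over the 449 regions called in all 6, the median covered share was 20.9%, 42.6% and 72.5% in B6 replicates 1, 2 and 4 and 96.6%, 50% and 95.9% in 129 replicates 1, 2 and 3. Every 129 headfold lay above every B6 headfold in 52 regions (11.6%) and the reverse in 0 (0%). These are counts of regions whose groups did not overlap, with no test. The 52 became 456, 115 and 288 regions without 129 replicate 2, B6 replicate 2 and B6 replicate 4, and the 0 became 1 without 129 replicate 1.

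Shared domains were compared by rank in the equal lists, since signal is not scaled between headfolds. The rank is that of the single peak of largest total signal in a domain. It therefore also depends on peak width and on how far a domain is split into peaks. The 10 domains with the largest difference on the 129 side were 17.9 to 32.1 kb wide, and those on the B6 side 7.16 to 12.6 kb. In B6 replicate 1, equal-list peaks covered 5.83% to 14.5% of the former and 19.5% to 42.0% of the latter. Of the 238 domains called in all 6, every 129 headfold ranked above every B6 headfold at 11 (4.62%) and the reverse at 24 (10.1%). Foxa1 ranked 97th, 73rd and 88th in 129 replicates 1, 2 and 3 and 391st, 600th and 213th in B6 replicates 1, 2 and 4. Gbx2, a factor of the midbrain-hindbrain boundary, ranked 49th, 82nd and 43rd against 315th, 400th and 116th. Mnx1, the motor neuron factor, ranked 38th, 13th and 36th against 124th, 46th and 56th. Gdf6 (a BMP family ligand), Gata6 (a factor of heart and endoderm), Msx3 (a dorsal neural factor), Fev (a serotonergic neuron factor) and the domain of Prss16 with tRNA genes likewise ranked higher in each 129 list. In lists of embryos given vitamin C, 10 of the 11 domains were present in all 6, and the mean rank was stronger in 129 at all 10. Ranks separated fully at 2 of them. Of the 238 domains, 185 were present in all 6, and at 80 of these the mean rank was stronger in B6.

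On the B6 side the largest differences were at Syt2 (a synaptic vesicle calcium sensor, mean rank 311 in B6 and 636.3 in 129), Rxfp3 (a relaxin family receptor, 394 and 680.3), Nags (an enzyme of the urea cycle, 229.3 and 510.3), Tnxb (an extracellular matrix protein, 286 and 545) and Hic1 with Mir212 and Mir132 (132.3 and 391). Fgf4, Dscaml1, Adam33, Camk2b and Ecel1 followed. When peaks were ranked by maximum in place of total signal, the B6 side counted 0, in place of 24, and the 129 side 15. With vitamin C, 17 of the 24 were present in all 6 equal lists, and the mean rank was stronger in B6 at 12 of these, against 80 of the 185. Ranks separated fully at 3 of the 17. Without B6 replicate 1 the B6 side counted 68 and the 129 side 31, and without 129 replicate 2 they counted 53 and 45. Without B6 replicates 2 and 4 the 129 side counted 23 and 48.

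**Figure D4:**
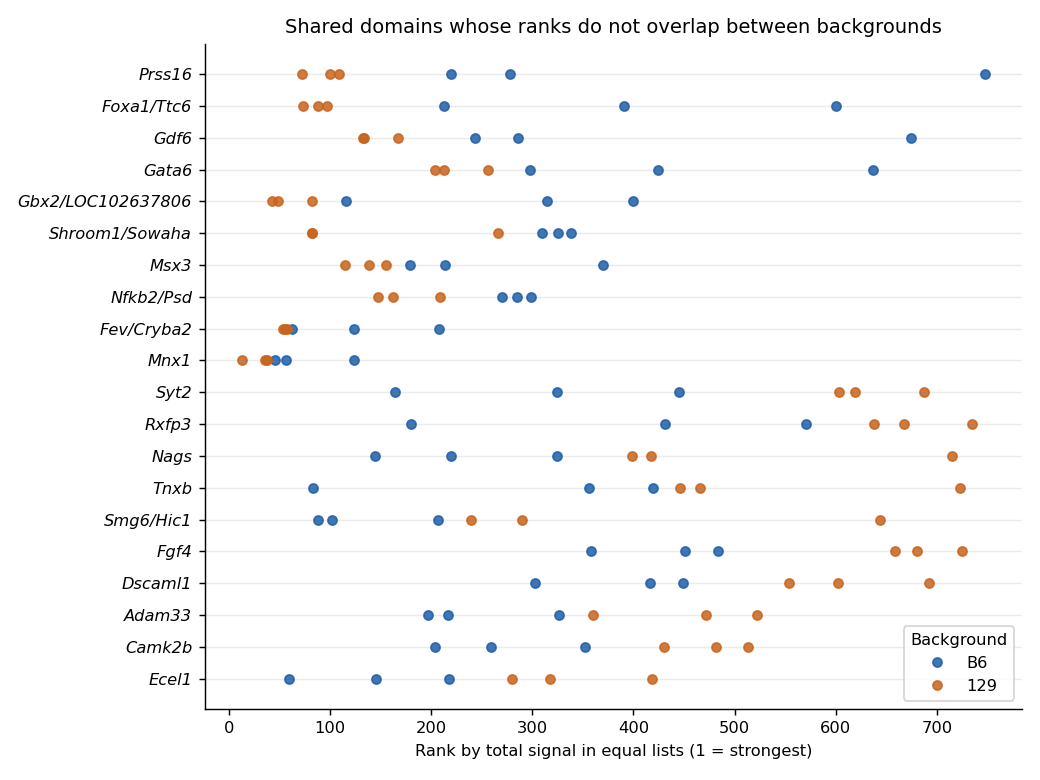
Rank by total signal within equal lists (x axis, 1 is the strongest of 748) of the 10 shared domains per direction with the largest difference whose ranks did not overlap. Each point is a headfold, B6 blue and 129 orange. The upper rows, such as Foxa1 at 73 to 97 in 129 and 213 to 600 in B6, rank higher in 129, and the lower rows rank higher in B6. Ranks are those of the strongest single peak in a domain.

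Ranks of all shared domains were most alike in 129 replicates 1 and 3 (Spearman rho 0.971 across 238 regions, a description). B6 replicate 4 was closer to 129 replicate 1 (0.850) than to B6 replicate 2 (0.712), and B6 replicate 1 reached 0.239 to 0.380 with the other 5.

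Gene lists of developmental roles were read against all protein-coding genes, of which 2192 (10%) were marked in more 129 than B6 full lists and 135 (0.617%) in more B6, and 688 (3.14%) and 244 (1.11%) in equal lists. Of the 3091 protein-coding genes marked in any full list, those marked in more 129 and more B6 were 70.9% and 4.37%. Of the 1275 marked in any equal list, they were 54.0% and 19.1%. These counts follow the peaks at gene ends. The call of the whole domain can differ, also in direction, and is given beside some of the named genes. Among 36 genes of neural crest and of the dorsal neural tube, 24 were marked in more 129 and 1 in more B6 full lists, and 21 and 0 in equal lists. The 24 and 21 are 75% and 77.8% of those marked in any full and any equal list. Pax3, which is needed for neural tube closure, was marked in 3 of 3 129 and 1 of 3 B6 headfolds in full and equal lists alike. Tfap2b and Dlx6 were marked in 3 129 and 1 B6 full lists and in 2 and 1 equal lists. Zic1 and Lmx1b were marked in 3 and 2 full lists and in 3 and 1 equal lists. The domains of Zic1 and Lmx1b, however, were called in all 6 headfolds in full and equal lists, that of Dlx6 in all 6 full lists and that of Pax3 in 2 of 3 B6 full lists. In equal lists 16.7%, 25% and 58.3% of the dorsal genes were marked in B6 and 69.4%, 38.9% and 75% in 129, which overlap.

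Among 44 neurogenic and neuronal genes, 18 were marked in more 129 and 0 in more B6 full lists, and 24 and 1 in equal lists. Lhx4 and Isl1, LIM factors of motor neurons, were marked in 2 of 3 129 and 0 of 3 B6 headfolds, and Evx2 and Pou3f3 in 3 and 1 of the full lists. The domains of Lhx4, Evx2 and Pou3f3 were called in all 6 full and equal lists, and that of Lhx4 ranked 250th, 82nd and 85th in B6 and 95th, 98th and 81st in 129. No region at Isl1 was called in a B6 headfold. For the 20 ventral neural tube genes the counts were 10 and 1, with Sim1 and the Hedgehog mediator Gli1 in 3 of 3 129 and 1 of 3 B6 headfolds, and Foxa2, the floor plate factor, in 2 of 3 129 and 3 of 3 B6. The domain of Gli1 was called in 2 B6 headfolds and that of Foxa2 in all 6. Among 40 genes of anterior patterning they were 14 and 2, with Otx1, Six6 and Fgf8 in 3 and 1 and with Six3 in 2 and 3. In equal lists Sox1 was the member marked in 3 of 3 129 and 0 of 3 B6, and Pax8 went the other way at 1 and 3. Of members marked in any full list, those marked in more 129 were 42.9% of neurogenic, 52.6% of ventral and 40% of anterior genes. Each share lies below the 70.9% over protein-coding genes. In equal lists the shares were 63.2%, 70.6% and 56.25%, against 54.0%.

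Of 39 Hox genes all were marked in at least 1 headfold, 25 in all 6, 9 in more 129 and 4 in more B6 full lists. Hoxc8 was marked in 3 of 3 129 and 1 of 3 B6 headfolds, and Hoxc11, Hoxc12, Hoxd9 and Hoxd10 in 2 of 3 129 and 3 of 3 B6, while the domains that hold them were called in all 6. In equal lists the share of Hox genes marked was 48.7%, 87.2% and 94.9% in B6 and 100%, 59.0% and 100% in 129.

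In equal lists the shares marked did not overlap between the backgrounds for 2 of the 20 gene lists, heart and vessel and endoderm and gut, and the gap was 1 gene in each. Over all protein-coding genes the shares were 1.86%, 2.61% and 3.64% in B6 and 4.30%, 2.72% and 4.2% in 129. Heart and vessel genes were marked at 52.0%, 60% and 64.0% in B6 and 80.0%, 68.0% and 80.0% in 129, with Tbx20, Gata6 and Sox17 in 3 of 3 129 and 1 of 3 B6 by gene ends. The domain of Gata6 was called in all 6. Endoderm and gut genes were marked at 34.8%, 56.5% and 52.2% in B6 and 65.2%, 60.9% and 73.9% in 129, with Hhex in 3 and 0. In full lists the 2 lists overlapped. Among 25 mesoderm, somite and muscle genes the equal lists gave 7 marked in more 129 and 4 in more B6, the latter Myod1, Mesp1, Tbx18 and Meox2. These are 41.2% and 23.5% of the 17 marked in any equal list. Over protein-coding genes the shares were 54.0% and 19.1%, and the difference was not tested. The domain of Tbx18 was called in 1 equal list of each background.

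**Figure D5:**
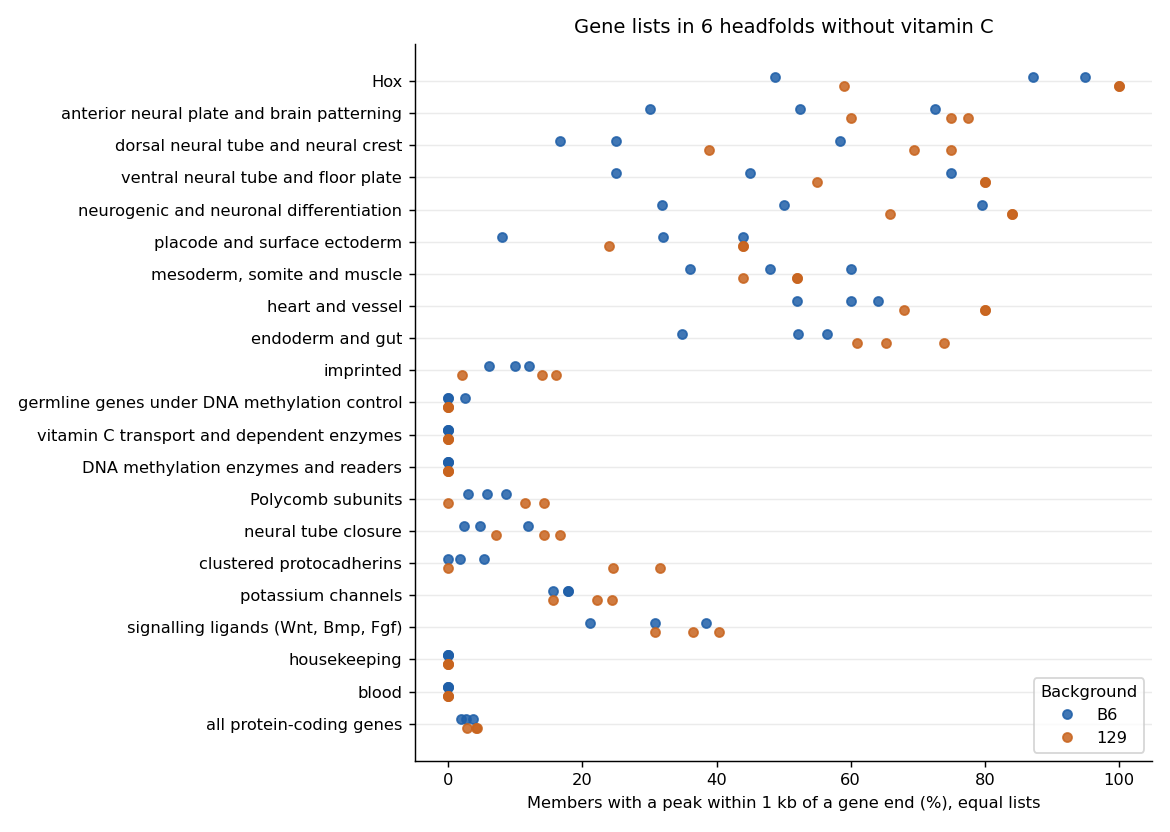
Share of the members of each gene list (x axis, percent) with a peak within 1 kb of a gene end in equal lists, 1 point per headfold without vitamin C, B6 blue and 129 orange. Heart and vessel genes lie at 52.0% to 64.0% in B6 and 68.0% to 80.0% in 129, the dorsal and neurogenic lists overlap, and housekeeping genes lie at 0%.

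Clustered protocadherins, cell adhesion genes of neurons, were marked in more 129 headfolds at 21 of 57 and in more B6 at 0 in full lists, and at 18 and 1 in equal lists. The share marked in equal lists was 31.6% and 24.6% in 129 replicates 1 and 3 but 0% in 129 replicate 2, and 1.75%, 0% and 5.26% in B6. The domain of 56.3 kb at Pcdhga8 and Pcdhga12 was called in 3 129 and 2 B6 full lists, and in 2 and 1 equal lists. Of 42 genes of neural tube closure 10 were marked in more 129 and 1 in more B6 full lists. Pax3, Twist1, Grhl3 and Alx1 were marked in 3 129 and 1 B6 headfolds and, by gene ends, Wnt5a in 0 and 1. The domain at Wnt5a, however, was called in 2 129 headfolds and 1 B6 headfold, and those at Grhl3 and Pax3 in 3 and 2. Among signalling ligands of the Wnt, Bmp and Fgf families, 29 of 52 were marked in more 129 and 3 in more B6 full lists, and 13 and 5 in equal lists. Placode and surface ectoderm gave 11 and 2 of 25, with Grhl3 in 3 and 1. Potassium channels gave 19 and 1 of 45, and imprinted genes 7 and 2 of 50, with Grb10, Cdkn1c and Plagl1 in 2 of 3 129 and 0 of 3 B6. The domain of Grb10 was called in 1 B6 headfold. Of members marked in any full list, 67.4% of ligands, 61.1% of placode genes, 57.6% of potassium channels and 50% of imprinted genes were marked in more 129. These lie below the 70.9% over protein-coding genes. For protocadherins and closure genes the shares were 100% and 76.9%.

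Some lists served as checks. None of 32 housekeeping genes was marked in any headfold, and the blood list gave 2 of 15 marked in more 129 and 0 in more B6 full lists. Of 37 genes of vitamin C transport and vitamin C dependent enzymes, 3 (P4ha2, P4ha3 and Tet2) were marked in 1 129 headfold each and 0 B6. Of 16 genes of DNA methylation, 1 (Dnmt3a) was marked, in 1 129 headfold, and its domain was called in 1 headfold of each background. Germline genes under DNA methylation control gave 2 and 0 of 41, and Polycomb subunits 5 and 0 of 35, with Bmi1, Pcgf1, Pcgf3 and Pcgf5 in 2 of 3 129 and 0 of 3 B6. The domain at Pcgf1 was called in all 6 headfolds and that at Bmi1 in 2 of 3 B6. Of the 9 Polycomb genes marked in any full list, 55.6% were marked in more 129, below the 70.9% over protein-coding genes. In equal lists the share was 40% of 5, against 54.0%. The blood and germline lists each had only 2 members marked in any full list. At Gulo itself (chr14:65986786-66009254) no list held a peak, which is no check of the deletion.

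Of the length under peaks, the X chromosome took 1.54% ± 0.396 in B6 and 1.63% ± 1.34 in 129 (SD, n = 3 each, exact permutation p = 1). The sign of this difference changed without 129 replicate 1 (0.68 percentage points) and without B6 replicate 2 (0.06). The difference of the background effect between the diets (B6 minus 129 without vitamin C, less the same with vitamin C) was -0.77 on the log2 scale for covered length (exact permutation p = 0.55, 400 relabellings) and -0.08 for marked genes of equal lists (exact permutation p = 0.89). For peak number it was -1.17 (exact permutation p = 0.14), since the 129 lists were longer without vitamin C (-0.54) and the B6 lists with it (0.63). For marked genes it was -0.79 (exact permutation p = 0.325) and for median width 0.48 (exact permutation p = 0.625). In these tests background labels were shuffled within each diet, so the reference is no background effect in either diet. Their p-values therefore do not by themselves test whether the background effect was the same in both diets. The tests count single headfolds, and the B6 headfolds with vitamin C shared a pregnancy code.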

How the data were processed

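H3K27me3 CUT&Tag was read from deposited peak lists of single headfolds, 3 per background without and 3 with vitamin C. Reads were handled with cutadapt, Bowtie2, Picard and SEACR on build mm10, per the submitters' processing notes. For the versions, the settings, any use of IgG and the placing of reads with several matches, no source used here gives details. Each peak's total and maximum signal are values the authors deposited, and they were used only as ranks or percentiles within a list. Read depth is unknown.

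Peaks sharing 1 bp were merged into regions called in at least 2 of 6 headfolds. A gene was marked where a peak lay within 1 kb of either end (RefSeq, GRCm38.p6, the mm10 assembly, 49993 genes, 4 without a position left out). Equal lists held the 748 peaks of largest total signal. Single values were compared by two-sided exact permutation. No regions were tested singly. Tools were SciPy 1.17.1, pandas 2.3.3 and NumPy 2.4.6 under Python 3.11.15, with plots by Matplotlib 3.10.9, and the merging and calling were tested on simulated lists. Genes were named as the widest-peaked on each side (up to 15 per list type), the 10 widest shared regions, the 10 largest rank differences per direction, and up to 4 members of each gene list per direction. Other genes were named after their values were seen. The comparison, its gene lists and their members were chosen with earlier results of these data known. One symbol of the lists, Zac1, was not found. Some genes are not reported here.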

Additional observations from a re-analysis of the deposited data

How the results depend on the processing

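Of 230 alternative values for 20 results, 171 kept their direction (differences) or stayed within 1.5 times (counts), 52 counts moved by more and 7 differences changed sign. Keeping direction does not mean a like size, as median width was -0.16 in females alone against -0.85. Leaving out 1 headfold at a time gave log2 differences (B6 minus 129) of -0.92 to 0.017 for peak number, -2.12 to -1.09 for covered length, -1.18 to -0.24 for median width, -1.34 to -0.48 for marked genes and -0.77 to -0.26 for marked genes of equal lists. It gave -0.57 to 0.68 percentage points for the X share and -0.0453 to 0.195 for the similarity within minus across. Counts on the 129 and the B6 side ran from 50 to 666 and 5 to 14 regions, 34 to 86 and 10 to 32 regions of equal lists, 65 to 851 and 6 to 11 genes, 61 to 232 and 15 to 30 genes of equal lists, 52 to 456 and 0 to 1 shared regions by covered share, and 13 to 48 and 24 to 68 by rank. The sign also changed for the X share in equal lists (0.34) and for similarity in females alone (-0.0915).

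Counting only peaks within 1 kb of the transcription start, 34 and 3 genes separated the backgrounds, and 25 and 7 in equal lists. With equal lists of 374 peaks the ranks gave 6 and 7 domains and the regions 18 on the 129 side. Ranking by maximum signal gave 0 domains on the B6 side. Requiring peaks over 50% of a region left 3 regions on the B6 side in full and 3 in equal lists. Without the shortest list of each background, an alternative chosen after seeing the data, the 129 and B6 sides held 667 and 14 regions, 28 regions of equal lists on the B6 side, with a rise of 77 over the 29 on the 129 side, 855 and 11 genes, 256 and 29 of equal lists, 1019 and 1 shared regions by covered share, and 64 and 87 by rank. With fewer lists to satisfy, counts of separating features rise by construction. Beyond that, the cause was not tested. Peak number has no value in equal lists, whose lengths are the same. No paired analysis was possible because the labels carry no replicate numbers that tie a B6 to a 129 headfold. The main limits are 3 headfolds per background, library numbers that run with background, unknown depth, and 1 short list in each background. The B6 headfolds given vitamin C also shared a pregnancy code.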

Other observations

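The array of 5S ribosomal RNA genes on chromosome 8 lay under peaks in all 6 headfolds without vitamin C, with 49, 49 and 50 of 65 annotated ribosomal RNA genes marked in B6 replicates 1, 2 and 4 and 50, 48 and 50 in 129 replicates 1, 2 and 3. With vitamin C the B6 headfolds had 50, 49 and 50 marked genes and each 129 headfold had 2. These genes are near-identical copies, and how their reads were placed is not given in the sources used here. Separately, tRNA genes marked with vitamin C numbered 25, 21 and 44 in B6 and 63, 25 and 41 in 129, so those groups overlapped.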
